A study of Mus musculus with 40 samples.

Results

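Active early and silent later described 1400 reporter inserts of a mouse enhancer screen, 983 in replicate 1 and 417 in replicate 2. They were chosen by their readout. Each was a fragment with the same chromosome, start and end in 1 or more of the Low, Medium or High libraries of embryonic stem cells (ES) or hemangioblast cells (HB), and in 1 or more Negative libraries of hemogenic endothelium 1 (HE1), hemogenic endothelium 2 (HE2) or hematopoietic progenitors (HP) of the same replicate. None was in a Low, Medium or High library of HE1, HE2 or HP. ES and HB are called early below, HE1, HE2 and HP late, and the Low, Medium and High gates together positive. The fragments that met the rule, called members, were 0.341% of the 288301 distinct fragments of replicate 1 and 0.598% of the 69718 of replicate 2. They had 1399 different coordinates, of 354627 in the whole data set.

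The screen was made in HM-1 cells, an embryonic stem cell line of the mouse strain 129/ola without a working Hprt gene, in which a reporter cassette was placed at the Hprt locus and repaired it. Every one of the 40 libraries shared this line, locus and cassette. An open-chromatin fragment cut by the transposase Tn5 stood before the Hsp68 minimal promoter and the Venus-YFP gene, and the cells of 5 stages were sorted into Negative, Low, Medium and High YFP, with 2 replicates of each of the 20 groups. Per the methods, the Negative gate was set on cells whose reporter held no fragment, and HE1, HE2 and HP were taken by the surface proteins KIT, TIE2 and CD41. The data held no gene expression, so the stage labels were not checked against markers. A list recorded presence only, so a fragment carried by a single misplaced cell and one carried by many cells could not be told apart, and absence meant that a fragment was not detected at the depth of the library.

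Enhancers are stretches of DNA whose bound transcription factors raise transcription from a promoter at a distance. A cell of the blood lineage passes through mesoderm, where hemangioblasts can form both endothelium and blood, and then through hemogenic endothelium, from which blood progenitors bud under control of RUNX1. Pluripotency factors such as OCT4, SOX2 and ESRRB act in stem cells, TEAD and AP-1 factors are linked to endothelium, and GATA, RUNX and PU.1 factors to blood. An element with a role limited to the first stages would be active in stem cells or mesoderm and lose its activity later, and the rule asked which inserts had such a record in the screen.

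Sequences are shown for fragments among the 10 members of each replicate found in the highest number of the libraries the rule draws on, and for the 1 fragment that met it in both replicates. All are read from GRCm38, the assembly that mm10 names, on the plus strand. Capitals mark matches on either strand to any of 12 short motifs. In these fragments the GATA motif was searched as AGATAAG. The motif of RUNX factors was TGTGGTC or TGTGGTT. The motif of KLF factors was GGGTGTG or GGGCGTG. That of RBPJ was searched as TGGGAA, that of PU.1 as GAGGAAG, the E-box as CAGCTG, and CTCF by its consensus. A match describes letters and no binding was measured.
Slc26a10, replicate 1, chr10:127177906-127178035: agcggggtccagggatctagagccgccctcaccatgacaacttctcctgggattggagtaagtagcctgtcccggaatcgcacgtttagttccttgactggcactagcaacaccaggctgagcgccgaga
Mir5625, replicate 1, chr5:30638147-30638295: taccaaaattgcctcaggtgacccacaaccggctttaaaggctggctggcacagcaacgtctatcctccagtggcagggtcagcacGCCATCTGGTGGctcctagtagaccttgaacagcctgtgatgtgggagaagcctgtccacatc
Stx3, replicate 1, chr19:11800522-11800770: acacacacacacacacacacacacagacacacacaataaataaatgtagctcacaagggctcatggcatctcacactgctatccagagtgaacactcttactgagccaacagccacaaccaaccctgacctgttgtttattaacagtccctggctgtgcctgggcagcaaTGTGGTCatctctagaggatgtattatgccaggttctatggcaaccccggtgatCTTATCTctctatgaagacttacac
Gm52688, replicate 2, chr4:154472688-154472896: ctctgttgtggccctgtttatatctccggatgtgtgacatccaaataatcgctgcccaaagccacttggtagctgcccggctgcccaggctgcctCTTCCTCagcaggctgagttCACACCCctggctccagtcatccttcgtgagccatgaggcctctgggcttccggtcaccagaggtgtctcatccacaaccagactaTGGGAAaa
C130023O10Rik, replicate 2, chr2:106840995-106841293: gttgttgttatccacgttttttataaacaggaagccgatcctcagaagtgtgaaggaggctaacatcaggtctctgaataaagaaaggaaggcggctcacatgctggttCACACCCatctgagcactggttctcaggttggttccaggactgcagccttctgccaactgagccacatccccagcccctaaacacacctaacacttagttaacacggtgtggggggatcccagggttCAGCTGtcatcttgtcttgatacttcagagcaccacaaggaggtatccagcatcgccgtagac
5930403N24Rik, replicate 2, chr10:37233979-37234169: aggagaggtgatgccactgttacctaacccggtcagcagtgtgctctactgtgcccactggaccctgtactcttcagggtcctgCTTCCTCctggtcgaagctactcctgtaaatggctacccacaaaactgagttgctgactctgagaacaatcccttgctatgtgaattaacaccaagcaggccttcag
Ip6k2, both replicates, chr9:108783768-108783998: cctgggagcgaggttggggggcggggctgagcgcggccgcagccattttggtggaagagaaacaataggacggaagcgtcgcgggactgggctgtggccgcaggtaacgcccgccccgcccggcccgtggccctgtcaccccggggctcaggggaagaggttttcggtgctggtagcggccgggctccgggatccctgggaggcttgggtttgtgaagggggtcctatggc
The names are those of the nearest start site of a curated RefSeq transcript and do not assign a target gene. The Gm52688 fragment lay in an intron of Prdm16, a transcriptional regulator with a role in blood stem cells, and the C130023O10Rik fragment in an intron of Mpped2. The Stx3 fragment was intronic in Stx3, which encodes a membrane fusion protein, and began in a run of CA repeats. The Ip6k2 and Slc26a10 fragments had their centres in exons, 71 bp and 2611 bp from the start site, and the other 2 fragments lay between genes.

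The rule was narrow in what it kept. In replicate 1, 65141 fragments were positive at an early stage, and 52508 of these were in no late library of any gate. In replicate 2 the numbers were 18771 and 12700. An early positive fragment was also in a late Negative library in 2925 cases in replicate 1 and in 2701 in replicate 2. Members were 33.6% of these in replicate 1 (983 of 2925, 95% Wilson interval 31.9 to 35.3) and 15.4% in replicate 2 (417 of 2701, interval 14.1 to 16.9). These are shares that the rule itself fixed, and nothing is read from them. The rest, 1942 and 2284 fragments, met every clause but the last and are called retained, since they were also in a late positive library. They are the set against which members were compared. In the opposite direction, silent early and positive late, there were 1941 and 482 fragments.

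Members lay close to the limit of the rule. In replicate 1, 865 of 983 (88.0%) were in exactly 1 early positive and 1 late Negative library, and in replicate 2 it was 233 of 417 (55.9%). For retained fragments these shares were 77.0% and 13.5%. Just outside the rule, 1123 of the retained fragments of replicate 1 and 816 of replicate 2 were in only 1 late positive library. A late positive fragment with both ends within 5 bp existed for 102 members of replicate 1 and 48 of replicate 2. The last clause leaned on single deep libraries. HE1 Medium of replicate 1 held 1450 of the 1942 retained fragments, and without it members of replicate 1 numbered 1760, or 60.2% of the 2925. HE1 Low of replicate 2 held 1782 of the 2284, and without it members of replicate 2 numbered 967, or 35.8% of the 2701.

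Early activity came from both stages and all gates. In replicate 1, 453 members were positive in ES alone, 492 in HB alone and 38 in both. In replicate 2 the numbers were 124, 248 and 45. The High gate of ES or HB held 416 of 983 members (42.3%) in replicate 1 and 152 of 417 (36.5%) in replicate 2. Of retained fragments it held 47.6% and 52.5%. The Medium gate held 35.0% and 47.7% of members, against 43.4% and 77.1% of retained fragments. The Low gate held 29.3% and 47.0% of members, against 26.4% and 69.0%. In 2 or more early positive libraries were 7.22% and 29.3% of members, against 17.1% and 68.7% of retained fragments. The rule used these libraries, so no difference in early strength is read from them. The highest gate reached was Medium for 313 and 148 members and Low for 254 and 117. The Negative library of the same early stage also held 37 members of replicate 1 (3.76%) and 98 of replicate 2 (23.5%). Of retained fragments it held 8.70% and 43.0%. Of the late Negative libraries of replicate 1, HE1 held 414 members, HE2 251 and HP 379. Those of replicate 2 held 200, 205 and 131. All 3 late Negative libraries held 7 members of replicate 1 (0.712%) and 21 of replicate 2 (5.04%), against 1.54% and 35.7% of retained fragments. Both 2 or more early positive and 2 or more late Negative libraries held 7 and 36 members (0.712% and 8.63%), against 2.42% and 38.0% of retained fragments.

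**Figure D1:**
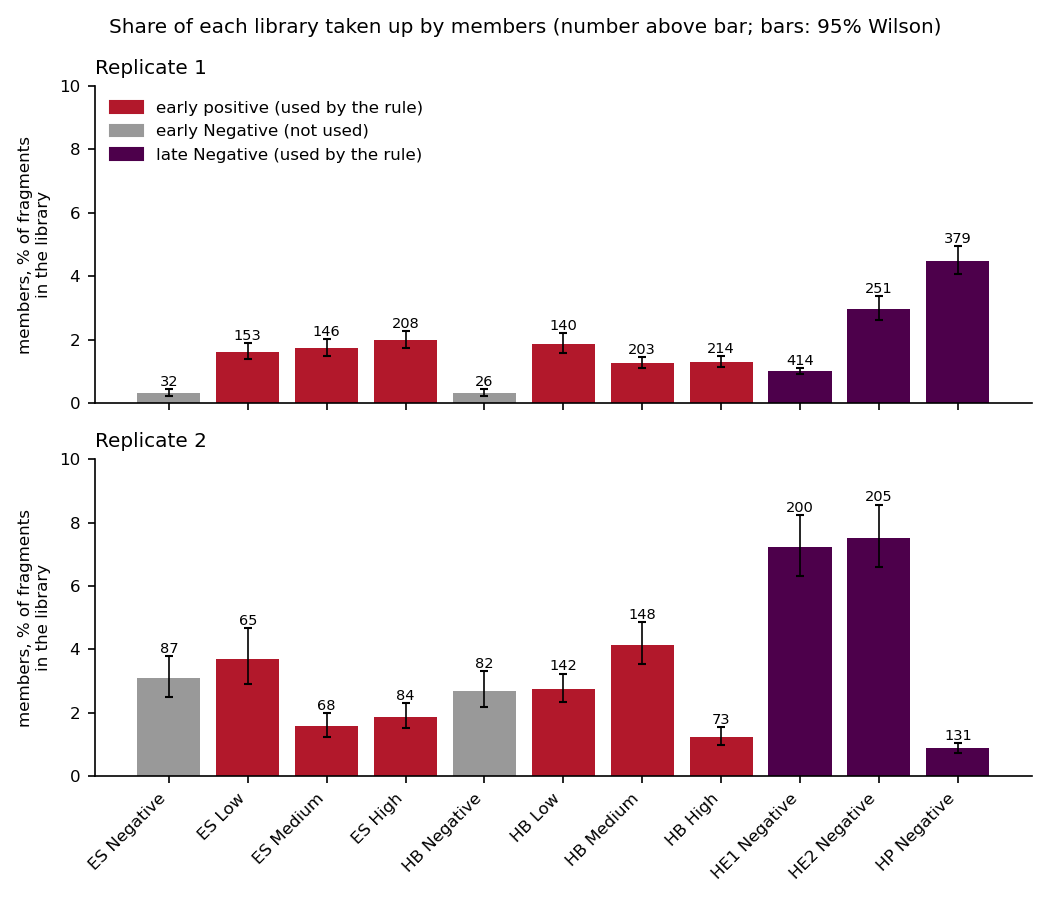
Members as a percent of the fragments of each library on the y axis, by ES, HB, HE1, HE2 and HP library on the x axis, for replicate 1 (top) and replicate 2 (bottom), with 95% Wilson intervals and the number of members above each bar. In replicate 1 the share is highest in HP Negative (4.48%), and in replicate 2 in HE2 Negative (7.52%) and HE1 Negative (7.21%).

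Depth differed between libraries, and its relation to these shares was not tested. Early positive libraries held 7468 to 16343 fragments in replicate 1 and 1763 to 5931 in replicate 2. Late Negative libraries held 8430 to 41374 and 2727 to 14951. The deepest late Negative library of each replicate, HE1 of replicate 1 and HP of replicate 2, had the lowest share of members among them, 1.00% and 0.876%. HE2 and HP Negative of replicate 1 were of similar depth, 8430 and 8458 fragments, with shares of 2.98% and 4.48%. Late positive libraries, in which a member had to be undetected, held 4869 to 51146 fragments in replicate 1 and 654 to 31915 in replicate 2.

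The members present in most libraries were few and differed between replicates. In replicate 2 the fragment 2292 bp from Prdm12, which encodes a regulator of sensory neurons (exon, chr2:31642150-31642508), was in ES Medium and High, HB Low and Medium and the Negative libraries of HE1, HE2 and HP, and also in HB Negative. A fragment 2277 bp from Fam71f2 (chr6:29278624-29279103) was in ES Low and Medium, HB Low and Medium and all late Negative libraries, and in both early Negative libraries. The Prdm16 intron fragment printed above was in 5 early positive libraries, in ES and HB Negative, and in HE1 and HE2 Negative. These 3 had 7 of the libraries that the rule asked for.

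A fragment 28580 bp from Ddah1, which encodes an enzyme that breaks down inhibitors of nitric oxide synthesis (chr3:145729937-145730286), was in HB Low, Medium and High, in no early Negative library and in all 3 late Negative libraries of replicate 2. The same gates held a fragment 4063 bp from Gm10033 (chr8:69399482-69399731). A fragment 388397 bp from Gm42303 in an intron of Ptprd, a receptor phosphatase gene, was in ES Medium, HB Low and HB Medium, in HB Negative and in all 3 late Negative libraries. Fragments in an intron of Slco5a1 (chr1:12879072-12879157) and 91604 bp from 5930403N24Rik were in HB Low and Medium and in all 3 late Negative libraries. The record of these was therefore repeated across gates sorted from 1 pool of cells, which are not separate replicates.

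In replicate 1 no member had more than 5 of the libraries asked for. The Slc26a10 fragment printed above was in ES Low, HB Low and all 3 late Negative libraries. A fragment 14784 bp from Mmp25, which encodes a membrane metalloproteinase (chr17:23630416-23630554), was in ES Low, Medium and High, in HE1 and HE2 Negative and in HB Negative. The Mir5625 fragment, with its CTCF match, was in ES Medium and High, HB Low, HE1 and HE2 Negative and HB Negative. A fragment 34016 bp from Smtn, a smooth muscle gene (chr11:3573245-3573371), was in HB Medium and all 3 late Negative libraries. Fragments near Stx3, Rps21 and Gatad2b were in ES High and all 3 late Negative libraries, and one near AU015836 in HB Low and all 3. Fragments near Pald1 and Ppp1r13b were each in 2 early positive libraries and in HE2 and HP Negative.

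A small share of members were neighbours of each other with nearly the same ends, and 63 of the 1400 had another member of their replicate within 5 bp at both ends. The 1400 members formed 1281 runs of overlapping fragments, of which 1195 held a single member and 5 held members of both replicates. The largest run held 13 members of replicate 1 near Stx3 (chr19:11800496-11800770), with 13 different starts and 1 common end. All 13 were in ES High, HE1 Negative and HP Negative and in no other early positive library. A run of 6 near Gadd45g, a gene of the stress and cell cycle response (chr13:51853222-51853494), had 6 starts and 1 end, and each fragment was in ES High and HE1 Negative of replicate 2. A run of 6 near Syt13 (chr2:92809520-92809769) had 1 start and 6 ends, each in HB Medium, HB Negative and HE2 Negative of replicate 2. Runs of 5 near 4930528G23Rik and of 4 near Crybg2 also shared 1 end, and the fragments of each run were in the same libraries. The polymerase chain reaction was run without molecular identifiers, so the number of integrated inserts behind such a run is not known, and intervals given here cover counting error only.

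The loci of the members were then examined through other fragments. In replicate 1, 959 of 983 members (97.6%, interval 96.4 to 98.4) were overlapped by a different fragment that was late positive in the same replicate, and a member had a median of 11 such neighbours. In replicate 2 it was 74 of 417 members (17.7%, interval 14.4 to 21.7), with a median of 0. The coverage of the replicates differed in the same way. Among all fragments in no late positive library, 86.5% in replicate 1 and 6.40% in replicate 2 were overlapped by a late positive fragment with an end over 20 bp away, and for members these shares were 97.4% and 7.67%. The locus of a replicate 1 member was thus seldom without late positive fragments. Of the 10 members of replicate 1 named for their number of libraries, each was overlapped by 4 to 79 late positive fragments of that replicate. Of the 10 of replicate 2, 9 were overlapped by no late positive fragment of replicate 2, and the fragment near Foxd1, a forkhead gene, by 6. The Ddah1 fragment was overlapped by 38 late positive fragments of replicate 1. No fragment of any replicate 1 library overlapped the other 9, so replicate 1 held no data on them.

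A total of 302 members, 19 in replicate 1 and 283 in replicate 2, were overlapped by no late positive fragment of either replicate. This was 1.93% of members in replicate 1, against 5.87% of all fragments and 0.927% of retained ones. In replicate 2 it was 67.9% of members, against 60.4% of all fragments and 41.7% of retained ones. Of these 302, 86 were in 2 or more early positive libraries, 62 in 2 or more late Negative libraries and 23 in 2 or more of each. All of these were in replicate 2. Of the 23, 10 were also in no ES or HB Negative library. Most loci of replicate 2 members had no data in replicate 1, since 99 of the 417 (23.7%, interval 19.9 to 28.1) were overlapped by any fragment there, and 92 of these 99 by a late positive one. Over all fragments of replicate 2, 17.4% were overlapped by any fragment of replicate 1, and 10565 of these 12137 by a late positive one. For retained fragments the late positive count was 419 of 478.

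**Figure D2:**
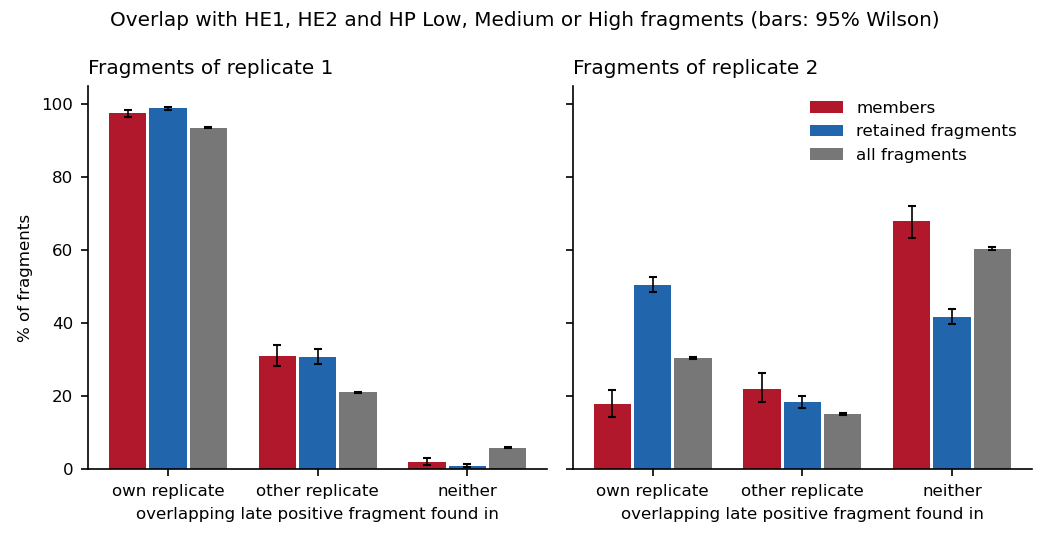
Percent of fragments (y axis) of replicate 1 (left) and replicate 2 (right) that were overlapped by a different late positive fragment of their own replicate, of the other replicate or of neither (x axis), for members, retained fragments and all fragments, with 95% Wilson intervals. In replicate 1, 97.6% of members had such a neighbour in their own replicate, while in replicate 2, 67.9% had one in neither.

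Inside a late Negative library, members were compared with the retained fragments of that library, which gave 6 differences. The two-sided exact sign-flip permutation test over 6 libraries has 64 sign patterns and cannot give a p below 0.03125. The rule made no use of the ES and HB Negative libraries, but the 2 sets differ in the number of libraries it asks for. In HE1, HE2 and HP Negative of replicate 1, 4.35%, 8.76% and 5.28% of members were also in an ES or HB Negative library, against 11.1%, 24.1% and 12.6% of retained fragments. In replicate 2 these shares were 33.5%, 37.6% and 34.4% of members against 60.9%, 63.8% and 48.6% of retained fragments. Members were lower in 6 of 6 libraries, and within each replicate the sets did not overlap.

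The mean difference in this early Negative share was -16.2 ± 8.94 percentage points (SD, n = 6, exact permutation p = 0.03125). The rule itself asks retained fragments for a further, late positive library. The early Negative share is thus not independent of the rule and is no support for it. The medians over both replicates, 2 libraries for members and 5 for retained fragments, are therefore a description only. When both sets were limited to fragments in exactly 1 early positive and 1 late Negative library, the difference was -3.62 percentage points (exact permutation p = 0.50, n = 6) and the call was lost. Averaged within each replicate as a replicate block it stayed at -16.2, and with 2 replicates no p below 0.50 is possible.

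The neighbour share was counted from other fragments than those the rule used, with an end over 20 bp away. These lay in the same late positive libraries that separated the 2 sets, and a fragment sharing 1 end could count. The share is therefore not independent of the rule and is no support for it. In replicate 1 it was 97.6%, 99.2% and 96.3% of members in HE1, HE2 and HP Negative, against 98.9%, 99.3% and 97.8% of retained fragments. In replicate 2 it was 8.50%, 5.85% and 9.92% against 12.2%, 10.8% and 17.4%. Members were lower in 6 of 6 libraries, by -3.16 ± 2.75 percentage points (SD, n = 6, exact permutation p = 0.03125). Most of this came from replicate 2, since the mean difference was -0.946 percentage points in replicate 1 and -5.37 in replicate 2. Taking 1 fragment for each run of overlapping fragments gave -2.74 percentage points (exact permutation p = 0.0625, n = 6), and the call was lost. It was also lost with the replicate block, which left -3.16 with an exact permutation p of 0.50 over 2 replicates.

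**Figure D3:**
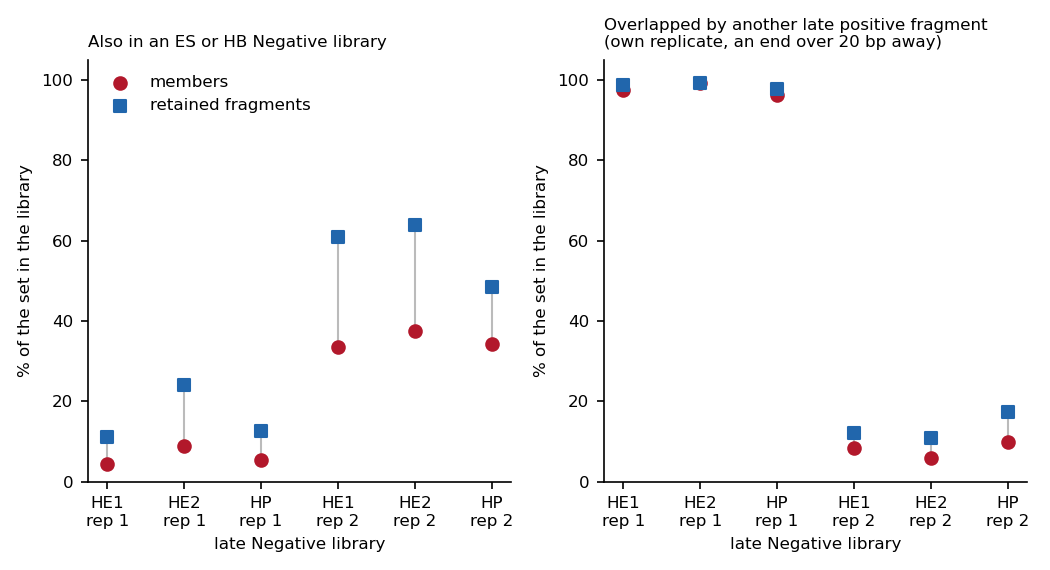
Percent of members (circles) and of retained fragments (squares) in each late Negative library (x axis) that were also in an ES or HB Negative library (left) or were overlapped by another late positive fragment of their replicate (right). Members lie below retained fragments in 6 of 6 libraries in both panels, with gaps in the left panel from -27.4 to -6.72 percentage points.

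The next question was whether a locus with a member had the same record in the replicate that the rule had not used for it. Of the 983 members of replicate 1, 65 (6.61%) had identical coordinates in a library of replicate 2, against 1.18% of all fragments and 136 of the 1942 retained ones. Of these 65, 63 were late positive there. Of the 417 members of replicate 2, 20 (4.80%) were in a library of replicate 1, against 4.87% of all fragments and 8.84% of retained ones. Of these 20, 12 were late positive. How many retained or other fragments found in both replicates were late positive was not counted. The late positive counts are therefore not read as particular to members. The Ip6k2 fragment was the 1 fragment to meet the rule in both replicates. Its centre lay 71 bp from a start site, and the study classes fragments within 1500 bp of one as promoter. Within that distance lay 26 of the 1400 members, and 6571 of the 357996 fragments placed on chromosomes. It was in HB Medium and HE2 Negative of replicate 1, and in ES Low, ES High, ES Negative and HE1 Negative of replicate 2. It was overlapped by 34 late positive fragments of replicate 1 and 1 of replicate 2.

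Whole regions gave the rule more room. A region was a run of overlapping fragments from all 40 libraries, and the 1400 members lay in 1264 of the 75060 regions. Of the 887 member regions of replicate 1, 123 held an early positive and a late Negative fragment in replicate 2, and 24 of these (19.5%, interval 13.5 to 27.4) held no late positive fragment there. Over all such regions of replicate 2 the share was 20.3% (594 of 2926). Of the 384 member regions of replicate 2, 50 qualified in replicate 1 and 1 of these (2.00%, interval 0.354 to 10.5) held no late positive fragment, against 0.999% (89 of 8912) over all such regions. Both intervals held the share over all such regions.

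Fragments of the other replicate that overlapped members were scored sort by sort, a sort being 1 stage of 1 replicate. Among such fragments the share found in the Negative gate alone was 10.4%, 8.70% and 20.9% in HE1, HE2 and HP of replicate 1, against 18.3%, 10.1% and 24.4% of those that overlapped retained fragments. In replicate 2 it was 2.34%, 15.4% and 77.8%, against 2.18%, 23.2% and 72.5%. The difference was -2.51 ± 5.06 percentage points (SD, n = 6 sorts, two-sided exact sign-flip permutation p = 0.3125), lower in 4 sorts and higher in 2. It reversed to 2.51 (exact permutation p = 0.40625, n = 6) without HE1 Low of replicate 2, a choice made after seeing the data.

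For early activity the share found in a positive gate was 72.6% and 81.5% in ES and HB of replicate 1, against 74.6% and 84.2% for fragments that overlapped retained ones. In replicate 2 it was 79.6% and 93.7% against 85.0% and 87.3%. The difference of -0.917 ± 5.12 percentage points (SD, n = 4 sorts) lay within the spread of the sorts (exact permutation p = 0.75). With 4 sorts no p below 0.125 is possible.

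**Figure D4:**
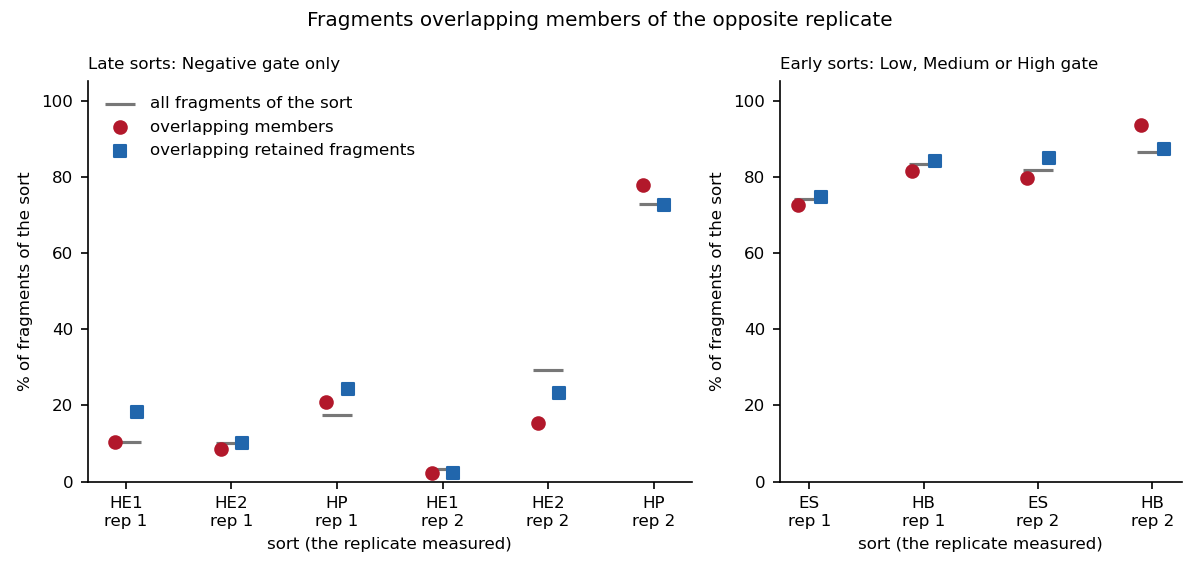
Percent of the fragments of each sort (x axis, with the replicate measured) found only in the Negative gate (left, HE1, HE2 and HP) or in a Low, Medium or High gate (right, ES and HB), for fragments that overlapped members of the opposite replicate, fragments that overlapped its retained fragments, and all fragments of the sort. The values of HP in replicate 2 (72.5% to 77.8%) stand apart from the other late sorts for all 3 sets.

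In length, base composition and position, members differed from retained fragments by less than the spread between libraries. Members were 69 to 593 bp long, with a median of 194 bp in replicate 1 and 206 bp in replicate 2, and the mean difference within libraries was -2.18 ± 24.2 bp (SD, n = 6, exact permutation p = 0.9375). Single libraries went far apart, with members 36.9 bp longer in HE1 Negative of replicate 1 and -34.4 bp different in HP Negative of that replicate. GC content was 56.8 ± 7.40% over the members of replicate 1 and 50.9 ± 7.92% over those of replicate 2 (SD over fragments), and the difference from retained fragments was -0.125 ± 0.618 percentage points (SD, n = 6, exact permutation p = 0.6875). The nearest start site was a median of 15470 bp away in replicate 1 and 21285 bp in replicate 2. The mean difference in log10 distance was 0.00457 ± 0.0515 (SD, n = 6, exact permutation p = 0.90625).

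Of the 1400 members 710 (50.7%) had their centre between genes, 583 (41.6%) in an intron and 107 (7.64%) in an exon, against 49.0%, 44.2% and 6.75% of all fragments. The largest of the 3 differences from retained fragments was for intergenic positions, 2.96 ± 5.60 percentage points (SD, n = 6, exact permutation p = 0.28125, adjusted p = 0.421875, higher in 5 of 6 libraries). None of the 3 passed the threshold before or after Benjamini-Hochberg adjustment. Chromosome 11 held 186 members (13.3%), the most of any, and 12.2% of all fragments.

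The 12 motifs stood for factors of each step. At least 1 was matched in all but 522 members (37.3%), and 36.8% of all fragments had none. Motifs of pluripotency factors were matched in 29 members for OCT (ATGCAAA, 2.07%), 95 for SOX (ACAAAGG or ACAATGG, 6.79%), 56 for ESRRB (AAGGTCA, 4.00%) and 139 for KLF (9.93%). The shares over all fragments, weighted to the lengths of the members, were 2.73%, 8.42%, 3.62% and 9.59%. Of motifs linked to endothelium, AP-1 (TGACTCA or TGAGTCA) was matched in 103 members (7.36%) and TEAD (GGAATGC or GGAATGT) in 81 (5.79%). RBPJ, the DNA-binding partner of NOTCH, was matched in 263 (18.8%). The weighted shares of these were 8.43%, 6.84% and 19.3%. Pooled shares hide differences between the replicates. AP-1 was matched in 6.61% of members against a weighted 9.18% in replicate 1, and in 9.11% against 5.40% in replicate 2.

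Blood motifs were matched in 64 members for GATA (4.57%), 123 for RUNX (8.79%) and 146 for PU.1 (10.4%), against weighted shares of 4.54%, 8.48% and 11.8%. The E-box was matched in 199 members (14.2%) and CTCF, the motif of an insulator protein, in 75 (5.36%), against 16.4% and 3.99%. The CTCF matches were 72 in replicate 1 (7.32%) and 3 in replicate 2 (0.719%), against weighted shares of 4.72% and 1.31%. Of retained fragments 6.90% and 1.62% had one, and of fragments silent early and positive late 7.47% and 2.29%. Against retained fragments of the same late Negative library, differences ran from -2.35 ± 3.41 percentage points for the E-box to 1.69 ± 2.41 for RUNX (SD, n = 6). The 13 Stx3 members of the largest run all matched RUNX and GATA. With 1 fragment for each run, the RUNX difference was 0.266 percentage points and that for GATA went from 0.711 to -0.606. None of the 12 motifs passed the threshold in these libraries by the exact permutation test, adjusted or not, and the smallest adjusted p was 0.60. With both sets limited to fragments in exactly 1 early positive and 1 late Negative library, OCT was lower among members in 6 of 6 libraries, by -3.24 percentage points (exact permutation p = 0.03125, adjusted p = 0.375).

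**Figure D5:**
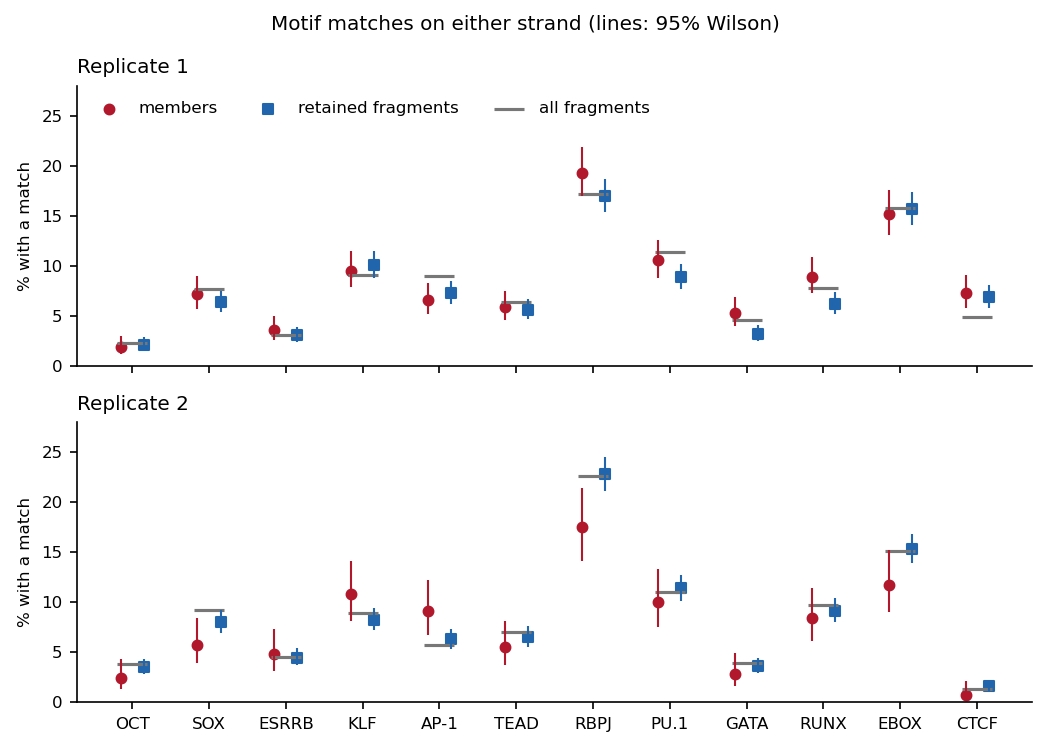
Percent of members, retained fragments and all fragments with 1 or more matches to each of 12 motifs (x axis), in replicate 1 (top) and replicate 2 (bottom), with 95% Wilson lines for members and retained fragments. CTCF matches are at 7.32% of members in replicate 1 and 0.719% in replicate 2, and KLF lies below retained fragments in replicate 1 and above them in replicate 2.

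Members near genes of the stages were counted by nearest start site. Lists of 20 to 25 genes held 1 to 6 members each, and their shares of the members stand beside those of all fragments as a description. The Wilson interval of each list held the share over all fragments, and that of the pluripotency genes ran from 0.0126% to 0.403%. Near 24 pluripotency genes lay 1 member (0.0714% of members against 0.224% of all fragments), in an intron of Esrrb, an orphan nuclear receptor of the stem cell network, 11874 bp from the start site (chr12:86433429-86433607). It was in ES High and HE1 Negative of replicate 1 and was overlapped by 10 late positive fragments there. Near 24 mesoderm and hemangioblast genes lay 6 members (0.429% against 0.314%). A fragment 15540 bp from Isl1, a homeobox gene of cardiac progenitors, was in ES Low, ES Medium, HB Medium and ES Negative and in HE1 and HE2 Negative of replicate 2. It was overlapped by 0 late positive fragments of replicate 2 and 1 of replicate 1. A fragment 6422 bp from Foxf1, a forkhead gene of lateral mesoderm, was in HB Low and Medium and in HE1 and HE2 Negative of replicate 2, with 0 late positive fragments over it there and 1 in replicate 1.

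Near 24 endothelial genes lay 6 members, all in replicate 1 (0.429% against 0.425%). The one nearest to Sox17, which encodes a SOXF factor of arterial and hemogenic endothelium, lay 74147 bp away, was in HB High and HE1 Negative and matched AP-1, RBPJ, PU.1 and the E-box. Over it lay 10 late positive fragments of replicate 1. The one near Pecam1, an endothelial adhesion molecule, was in HB Low and HP Negative, and 19 late positive fragments of replicate 1 overlapped it. Near 24 blood genes lay 5 members (0.357% against 0.340%). A fragment 57881 bp from Runx1 (chr16:92883813-92884097) was in HB Low and HP Negative of replicate 1, with GATA and RBPJ matches, and 18 late positive fragments overlapped it. A fragment 3966 bp from Gata2, a factor of blood stem cells, was in ES Medium and HP Negative, and 30 late positive fragments overlapped it. An exonic fragment of Myb, a factor of blood progenitors (chr10:21145106-21145272), was in HB Medium, ES Negative and all 3 late Negative libraries of replicate 2. No late positive fragment of replicate 2 and 14 of replicate 1 overlapped it.

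Members near genes of signalling pathways were counted in the same way. Near 20 AP-1 and Hippo genes lay 4 members (0.286% against 0.401%), at Amotl2, Fos and Junb. The fragment 27311 bp from Amotl2, which encodes an angiomotin-like partner of YAP, was in ES Low and High and in HE1 and HE2 Negative of replicate 2. It was overlapped by 1 late positive fragment of replicate 2 and 4 of replicate 1. The fragment 2203 bp from Junb, an AP-1 subunit, was in HB Low and HE2 Negative of replicate 1 and was overlapped by 64 late positive fragments. Near 25 genes of the TGF-beta, BMP, Wnt and FGF pathways lay 5 members (0.357% against 0.442%), at Axin2, Lef1 and Smad6. Near 20 neuronal genes, a control list, lay 1 member (0.0714% against 0.152%), in an intron of Cntnap2 and in HB Low and HE2 Negative of replicate 2, with no overlapping fragment of any library.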

How the data were processed

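The data were 40 lists of unique fragments, 1 for each stage, gate and replicate, with groups taken from the sample titles. Per the labels and the study's methods, the authors amplified the inserts of sorted cells, used Trim Galore on read pairs, Bowtie2 for alignment to mm10 and SAMtools for filtering, then joined each pair into a fragment and removed repeats. Background and open-chromatin filters with bedtools and annotation with HOMER are also described, and versions for these libraries are not given in the sources used here. The deposited values are coordinates in bp without read counts, so depth is the count of fragments in a list.

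Fragments were matched by identical chromosome, start and end with pandas 2.3.3 under Python 3.11.15. Sequence, GC content and motif matches came from GRCm38, and start sites, exons and introns from curated RefSeq transcripts, each fragment being placed by its centre. Overlap meant 1 bp or more unless stated. Motif shares over all fragments were weighted to the lengths of the members in bins of 25 bp. Members and retained fragments were compared within libraries by two-sided exact sign-flip tests, with Benjamini-Hochberg adjustment over the 12 motifs and the 3 annotation classes and a threshold of 0.05. Matching, overlap and tests were tested on simulated data. Intervals are 95% Wilson intervals.

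The members, gene lists, motifs and tests were chosen with earlier results of these data known. Named fragments were the 10 members of each replicate with the most libraries asked for by the rule, up to 3 for each gene list, and those that met the rule in both replicates. Runs of 4 or more members were named after their values were seen. Libraries of 1 replicate derive from 1 pool of transfected cells and share fragments, which is where the pairing by replicate number comes from. Separate cultures within a replicate are not described, so p-values measure the spread between libraries.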

Additional observations from a re-analysis of the deposited data

Results flagged for a closer look

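KLF matches stood out because the libraries of the replicates moved in opposite directions. In the late Negative libraries of replicate 1 the share of members with a match was below that of retained fragments in 3 of 3, with a mean difference of -2.35 percentage points. In replicate 2 it was above in 3 of 3, with a mean of 4.00 percentage points. The difference between replicates was not tested.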

How the results depend on the processing

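The early Negative share and the neighbour share kept their negative direction under every alternative. Alternatives with fewer than 6 units could not reach the threshold. With 6 units the early Negative share also lost its call for fragments in exactly 1 library of each kind (exact permutation p = 0.50). The neighbour share lost its call with 1 fragment for each run (exact permutation p = 0.0625). The early Negative share was -10.2 percentage points over the 4 ES and HB sorts, -3.62 for fragments in exactly 1 early positive and 1 late Negative library and -18.1 without HE1 Negative of replicate 1, and from -22.6 to -9.80 with a replicate left out. The neighbour share was -4.51, -2.74 with 1 fragment for each run, and -3.53 in the corresponding settings, and from -5.37 to -0.946 with a replicate left out. With the replicate block these shares stayed at -16.2 and -3.16 with 2 units, which cannot pass. Differences near 0 changed sign. Length went to 21.8 bp without HE1 Low of replicate 2 and from -9.99 to 0.171 with a replicate or HE1 Negative of replicate 1 left out. GC content went to 0.157 percentage points over 4 sorts, 0.203 over 12 early libraries, 0.238 for fragments in exactly 1 library of each kind and 0.0455 without HE1 Negative of replicate 1, with -0.518 to 0.268 when a replicate was left out. Log10 distance lay from -0.0106 to 0.0197 without a replicate. The RUNX difference was -2.82 and the GATA difference -1.38 for fragments in exactly 1 library of each kind, and GATA was -0.606 with 1 fragment for each run and from -0.895 to 2.32 without a replicate. The KLF difference was -0.0237 matches per 1000 bp and from -2.35 to 4.00 without a replicate.

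Members numbered 193 with 2 or more early positive libraries, 152 with 2 or more late Negative libraries, 367 with no overlapping late positive fragment, 417 to 983 with a replicate left out and 2177 without HE1 Medium of replicate 1. In the other replicate the late Negative share reversed to 2.51 without HE1 Low of replicate 2. The early positive share was 0.339 against all other fragments, and from -2.35 to 0.513 with a replicate left out. Settings that leave out HE1 Medium or HE1 Low were chosen after seeing the data, and the cause of these changes was not tested. Since no depth beyond fragment numbers is known, absence from a library is a limit of detection.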
